A study of Mus musculus with 8 samples.

Results

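The genes described here are 40 markers of myeloid cells and other leukocytes, followed across cumulus cells, the granulosa-lineage cells that surround the oocyte. A member was taken as measured where a probe set of the array carries that gene symbol and no other, and a gene with several such probe sets is represented by the one with the highest mean signal. By this rule 39 of the 40 were measured, among 8251 genes with a symbol of their own on the array; Lyn was matched by no such probe set. The members were divided by what they are known for. There are 29 strict leukocyte markers, all measured. Arg1 and Slfn4, which myeloid cells switch on when activated, form a group of 2. The remaining 9 were set apart: Cd14, Cd52 and Pdcd1, which earlier work has described in cumulus cells, and Cyba, Ptpn6, Cd68, Ctss, Lcp1 and Lyn, which are also expressed outside the blood lineage.

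Leukocytes move into the ovary around ovulation, and the ovulated cumulus mass passes to the oviduct, where blood-borne cells can also be met. Ptprc, the CD45 phosphatase, marks nucleated blood cells in general. Myeloid cells read antibody and ligands through Fc receptors and related receptors that signal by adaptors with an activation motif (ITAM), chiefly Tyrobp and Fcer1g, and the transcription factor PU.1, product of Spi1, drives much of their program. Macrophages are known by Csf1r, Adgre1, an adhesion receptor, lysozyme and C1q, and neutrophils by the calcium-binding pair S100a8 and S100a9.

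Female mice of 3 to 4 weeks, either wild-type C57Bl/6 (WT) or carrying Ptger2(-/-) on the same strain (EP2KO, without the prostaglandin E2 receptor EP2), all received 5 IU of PMSG, a hormone that acts like FSH. The 0 h cells were taken 48 h later with no hCG, and the other groups had 5 IU of hCG, which acts like LH, followed by 3, 9 or 14 h. There was 1 array per genotype and time, 8 in all, and the labels do not say how many mice stood behind each. Up to 9 h the large follicles of the ovary were opened with a needle and the cumulus cells stripped by glass capillary, whereas at 14 h the ovulated complexes came from the oviduct and the cells were released with hyaluronidase. Ovulation, site and way of collection therefore cannot be told apart at 14 h. The labels name no driver that would limit the loss of Ptger2 to a cell type. In such a bulk sample more cells of a type and more RNA per cell cannot be told apart either.

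The values are log2 signals, and array medians lay between 7.79 and 7.89. The Ptger2 probe set read 4.95, 5.97, 5.37 and 5.33 in WT at 0, 3, 9 and 14 h, and 4.57, 4.24, 4.69 and 4.51 in EP2KO. EP2KO was thus lower at each time, by 0.90 ± 0.176 (SE, n = 4 arrays per genotype), which did not pass (limma, adjusted p = 0.528), and where the probes lie relative to the deleted part was not checked. Of the granulosa genes, Inha, an inhibin subunit, read 14.22 and 14.37 at 0 h and 12.70 and 12.34 at 14 h, and Gja1, the main gap junction protein, stayed between 13.28 and 13.57. Of the 12 measured granulosa and cumulus genes 9 fell from 0 to 14 h and 0 rose, with a median of −1.62, among them Inhbb (−5.43), which encodes a subunit of inhibins and activins, and Hsd17b1 (−3.62), a steroid enzyme. The gap between the 3′ and the 5′ probe set of Gapdh, known to widen with short RNA or short copies of it, was 2.87 and 2.82 at 14 h against 0.80 to 1.86 on the 6 earlier arrays. The same gap for Actb was 1.61 and 1.37 at 14 h and 0.69 to 1.54 earlier, so that the ranges overlapped. Their part in the 14 h results below was not tested.

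Up to 9 h few members rose. On all 8 arrays 15 of the 39 stood below the array's median and 10 above it, which describes these probe sets and not the order of their transcripts, because probes differ in brightness. The heat map of all members by array gives the overall picture: mostly pale columns at 0, 3 and 9 h, and a limited set of dark rows at 14 h that are darker in EP2KO.

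**Figure D1:**
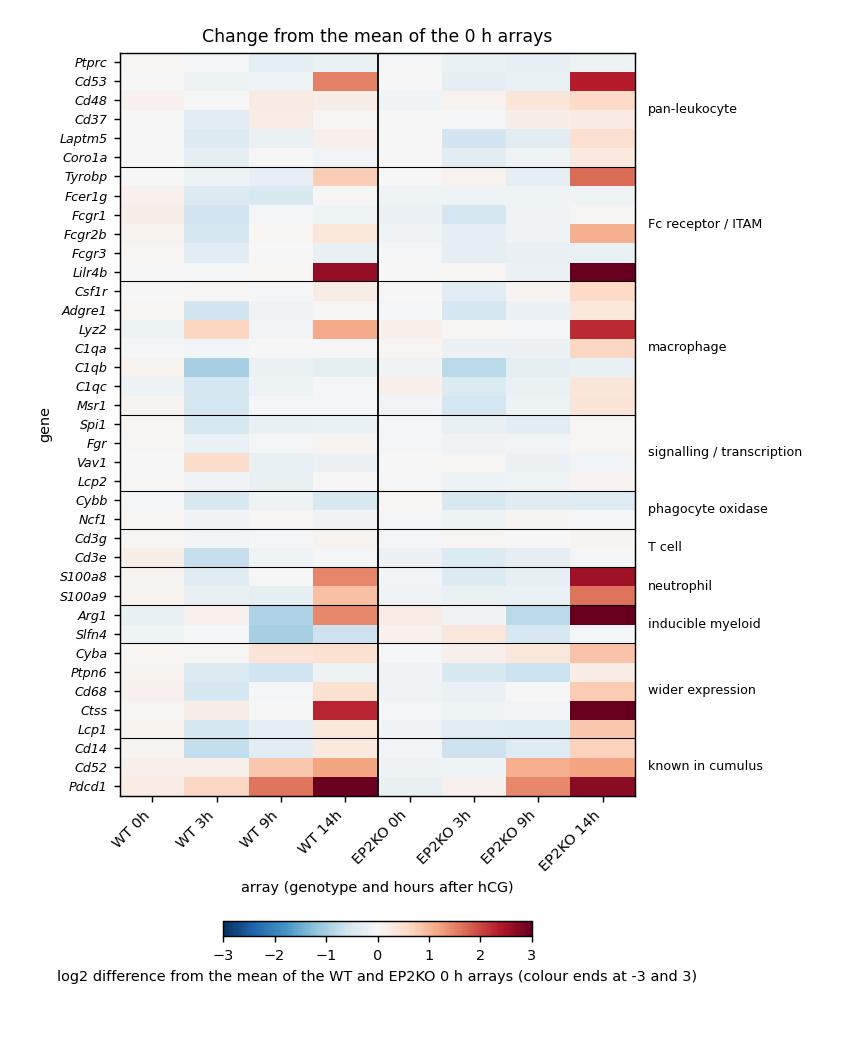
Log2 difference of each of the 39 measured members (rows, grouped by what they are known for) from the mean of its WT and EP2KO 0 h values, on each of the 8 arrays (columns). Lilr4b, Ctss, Arg1, S100a8 and Cd53 are red at 14 h, more strongly in EP2KO than in WT. In both genotypes Pdcd1 reddens stepwise and Cd52 is redder from 9 h on, and Ptprc, Spi1, Cd3g and Ncf1 stay pale throughout. Colours end at −3 and 3, so larger differences look alike.

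The comparison of 14 h with 9 h asks what differed between cumulus cells late before ovulation and the ovulated mass. Of the 39 members 16 rose (limma, adjusted p under 0.05) and 0 fell, where 10% of all 12422 probe sets were called higher and 10.1% lower. Because the members were chosen with earlier results of these data known, this share and those below describe the members only. The median change of the members was 0.31, against 0.03 over all probe sets. Among the 29 strict markers 8 rose and 21 did not pass, with a median of 0.22; both genes of the inducible group rose; and of the 8 measured genes set apart 6 rose. All 16 went up in both genotypes, which the call itself favours, because a genotype difference in the change counts as spread in that fit. Of the 16, 15 went up by more in EP2KO, and the matching count over all probe sets was not made.

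The upstream sequences of 5 genes are shown because they carry the contrast in time described next: 4 genes with no call up to 9 h that rose by 14 h, and Pdcd1, which rose in steps. Each is the run of 250 bases before the RefSeq start site (GRCm38.p6), 5′ to 3′ on the gene's own strand, and capitals mark GAGGAA or its reverse complement TTCCTC, a core recognised by PU.1 and other ETS factors. Lilr4b lies at chr10:51480362-51480611 on the plus strand, Ctss at chr3:95526536-95526785 and S100a8 at chr3:90668821-90669070, also on the plus strand. Cd53 at chr3:106790150-106790399 and Pdcd1 at chr1:94052554-94052803 are on the minus strand.
Lilr4b: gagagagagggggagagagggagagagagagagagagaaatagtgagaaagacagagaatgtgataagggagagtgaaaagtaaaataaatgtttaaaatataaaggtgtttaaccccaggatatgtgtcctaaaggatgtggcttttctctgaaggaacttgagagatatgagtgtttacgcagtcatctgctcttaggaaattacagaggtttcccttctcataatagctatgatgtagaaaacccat
Ctss: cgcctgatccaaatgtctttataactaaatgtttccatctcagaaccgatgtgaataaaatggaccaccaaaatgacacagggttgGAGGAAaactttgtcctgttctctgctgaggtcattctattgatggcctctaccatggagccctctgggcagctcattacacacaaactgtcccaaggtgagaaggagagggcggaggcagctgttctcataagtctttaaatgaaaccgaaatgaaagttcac
S100a8: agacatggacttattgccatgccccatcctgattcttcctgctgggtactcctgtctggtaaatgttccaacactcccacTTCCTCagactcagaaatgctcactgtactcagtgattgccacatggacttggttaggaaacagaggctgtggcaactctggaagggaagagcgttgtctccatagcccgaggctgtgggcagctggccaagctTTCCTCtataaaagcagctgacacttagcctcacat
Cd53: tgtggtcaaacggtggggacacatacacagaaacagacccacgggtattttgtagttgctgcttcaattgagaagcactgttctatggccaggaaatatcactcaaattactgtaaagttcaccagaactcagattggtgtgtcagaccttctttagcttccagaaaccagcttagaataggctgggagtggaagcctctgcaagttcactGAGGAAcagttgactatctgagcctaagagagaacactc
Pdcd1: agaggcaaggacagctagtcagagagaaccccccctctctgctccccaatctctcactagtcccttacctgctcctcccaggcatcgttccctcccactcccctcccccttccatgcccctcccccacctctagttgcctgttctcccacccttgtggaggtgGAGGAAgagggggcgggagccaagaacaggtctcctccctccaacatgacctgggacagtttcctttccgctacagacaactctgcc

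The core was found 164 bases before the start of Ctss, 170 and 36 bases before that of S100a8, 39 before that of Cd53 and 87 before that of Pdcd1, and these letters are not in the Lilr4b window. RefSeq's table held 34 windows for 30 of the 39 members, and 15 of these windows (44.1%) contained the core on either strand, against 23.3% of all 32851 windows of that length. The cAMP-type motifs TGACGTCA and TGACGCAA and the C/EBP motif TTGCGCAA, searched on both strands, were in 0 of the 34 windows and in 1.55%, 0.438% and 0.164% of all windows. The AP-1 motif TGAGTCA was in 2 of the 34, or 5.88%, against 4.46% of all. These matches describe letters in a window and were not tied to binding or to the changes above.

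Lilr4b, an immunoglobulin-like receptor of myeloid and mast cells, had the largest change. Its log2 signal was 4.53, 4.48, 4.60 and 7.16 in WT at 0, 3, 9 and 14 h, and 4.53, 4.56, 4.35 and 8.71 in EP2KO. The 6 earlier arrays thus lay between 4.35 and 4.60, with both 14 h arrays far above them. The rise from 9 to 14 h was 3.46 ± 0.331 (SE, from 2 arrays at each time; adjusted p = 5.96e-05 in limma). Lilr4b has a close paralog, Lilrb4a, and cross-reaction of the probes was not tested.

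Ctss, cathepsin S, the protease that trims the invariant chain in antigen-presenting cells, followed the same course. Ctss was 6.16, 6.29, 6.11 and 8.41 in WT and 6.08, 6.00, 6.04 and 9.76 in EP2KO. It was level through 9 h and rose by 3.01 ± 0.310 (adjusted p = 9.01e-05). Arg1, arginase 1, an enzyme of alternatively activated macrophages, moved before 14 h as well: 7.59, 7.93, 6.89 and 9.24 in WT and 8.03, 7.71, 7.01 and 11.15 in EP2KO. The 9 h arrays were its lowest in both genotypes and the 14 h arrays its highest, a rise of 3.25 ± 0.376 (adjusted p = 1.93e-04).

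Both neutrophil markers among the members rose together from 9 to 14 h. Further neutrophil genes outside the members, Camp, Ngp, Ltf, Mpo, Elane and Prtn3, did not pass, with changes between −0.065 and 0.305. S100a8 was 6.78, 6.34, 6.69 and 8.16 in WT and 6.62, 6.30, 6.46 and 9.24 in EP2KO, and its partner S100a9 6.18, 5.84, 5.79 and 6.97 in WT and 5.96, 5.86, 5.87 and 7.71 in EP2KO. For both genes the 14 h arrays stood above all 6 earlier arrays. S100a8 rose by 2.13 ± 0.261 (adjusted p = 2.75e-04) and S100a9 by 1.51 ± 0.193 (adjusted p = 3.45e-04).

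Of the pan-leukocyte genes, Cd53, a tetraspanin of leukocytes, and Laptm5, a lysosomal membrane protein of blood cells, rose. Cd53 was 5.66, 5.48, 5.50 and 7.15 in WT at 0, 3, 9 and 14 h, and 5.62, 5.38, 5.45 and 8.0 in EP2KO, with no overlap between the 14 h arrays and the others, a rise of 2.10 ± 0.207 (adjusted p = 7.16e-05). Laptm5 was 9.52, 9.13, 9.33 and 9.69 in WT and 9.56, 8.97, 9.19 and 10.03 in EP2KO, lowest at 3 h and highest at 14 h, a rise of 0.60 (adjusted p = 0.0127), with 0.84 for its other probe set, which passed too. The remaining 4 did not pass, and Ptprc itself went from 5.53 to 5.61 in WT and from 5.57 to 5.65 in EP2KO. Of the 2 dimmer Ptprc probe sets, one passed with a change of 0.45 (adjusted p = 0.0342) and the other stood at −0.14. Cd48, Cd37 and Coro1a, the actin-binding coronin of leukocytes, also stayed short of the threshold.

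Among Fc receptors and their adaptors 3 of 6 rose. Tyrobp (DAP12) was 7.10, 6.96, 6.88 and 7.85 in WT and 7.14, 7.23, 6.85 and 8.80 in EP2KO, so that the 14 h arrays stood above all others, a rise of 1.46 ± 0.204 (adjusted p = 5.97e-04). Fcgr2b, the inhibitory Fc receptor, was 5.94, 5.33, 5.89 and 6.18 in WT and 5.73, 5.57, 5.72 and 6.91 in EP2KO, a step mainly of EP2KO, with a mean rise of 0.74 (adjusted p = 0.0252). The partner chain Fcer1g and the activating receptors Fcgr1 and Fcgr3 did not pass. For Fcer1g the 14 h arrays (6.59 and 6.41) lay within the range of the earlier ones.

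Of the 7 macrophage genes only Lyz2, lysozyme, was called by its brightest probe set. Lyz2 was 5.27, 6.07, 5.34 and 6.56 in WT and 5.57, 5.48, 5.36 and 7.65 in EP2KO, a rise of 1.76 ± 0.289 (adjusted p = 0.00157), and its other probe set rose by 1.07. At 3 h the 2 probe sets of Lyz2 disagreed: the dimmer fell by 0.92 (adjusted p = 0.00232) and the one reported here did not pass. Lyz2 is close in sequence to Lyz1, and the probe set that lists both genes was not used. For C1qb, a chain of complement C1q, the probe sets disagreed: the brighter did not pass, while the dimmer rose by 0.94 (adjusted p = 0.0185) and reached 6.37 in WT and 7.40 in EP2KO. C1qa, Csf1r, Adgre1, C1qc and Msr1, a scavenger receptor, did not pass. C1qa read 7.20 at 14 h in WT, within its earlier range of 7.01 to 7.24, and 7.80 in EP2KO.

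None of the other strict groups was called at 14 h. Spi1 went from 7.78 to 7.79 in WT and from 7.67 to 8.03 in EP2KO. The kinase Fgr, the exchange factor Vav1 and the adaptor Lcp2 likewise did not pass. The same held for Cybb and Ncf1, a catalytic and an organising subunit of the phagocyte oxidase, and for the T cell receptor chains Cd3g and Cd3e. Cd3g ranged only from 5.07 to 5.26 over all 8 arrays.

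The plot of 12 members by time shows both courses, the late rise and the stepwise one.

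**Figure D2:**
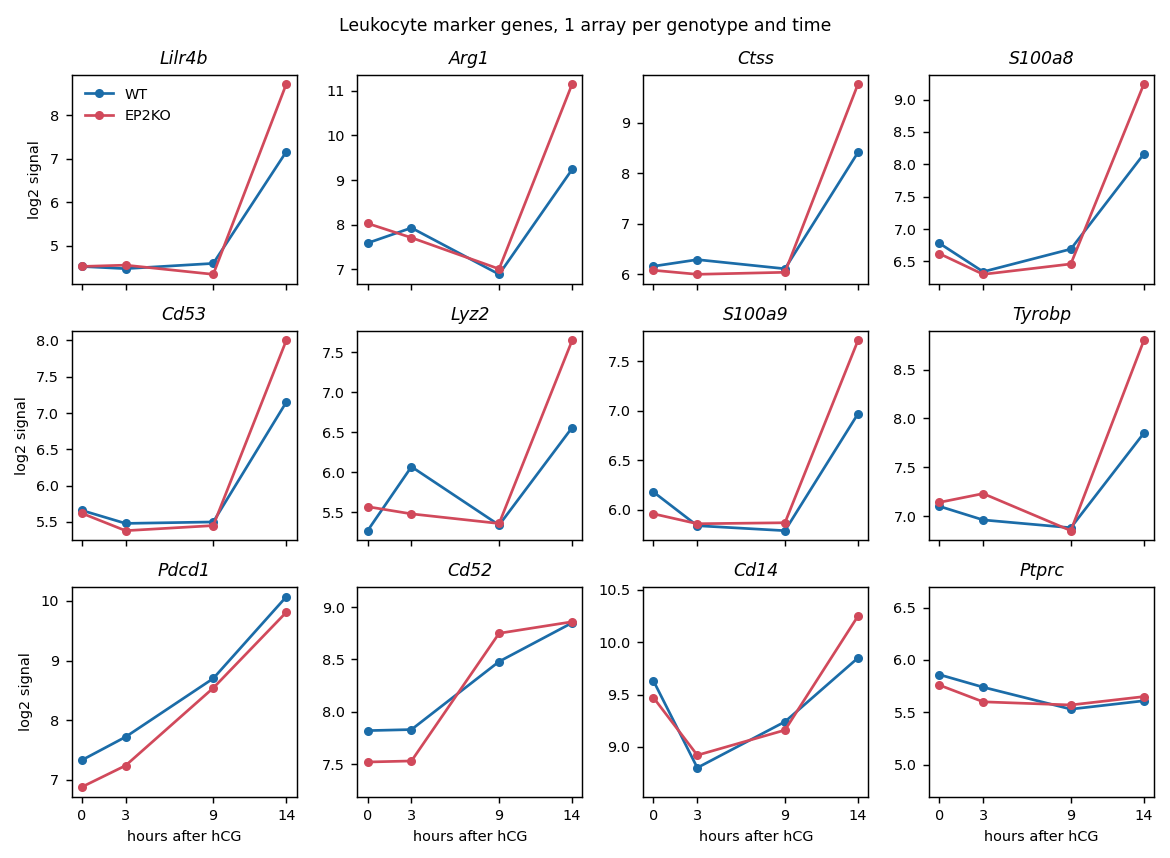
Log2 signal (vertical axes, which differ between panels) against hours after hCG for 12 members, 1 array per point, with WT in blue and EP2KO in red. The first 8 panels are level to 9 h or vary there by less than their later rise, and step up at 14 h with EP2KO above WT; Pdcd1 and Cd52 climb with both genotypes close together at 14 h; Ptprc stays between 5.53 and 5.86.

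Cd52 and Pdcd1 behaved differently from the late group. Pdcd1, the PD-1 receptor, was 7.33, 7.72, 8.70 and 10.07 in WT and 6.88, 7.24, 8.54 and 9.81 in EP2KO, so that each time stood above the one before in both genotypes. It rose by 0.38 from 0 to 3 h (adjusted p = 0.0357), by 1.14 from 3 to 9 h (adjusted p = 4.58e-04) and by 1.32 ± 0.126 from 9 to 14 h (adjusted p = 5.80e-05), 2.84 in all. Pdcd1 was the 1 member among the 16 whose change from 9 to 14 h was not larger in EP2KO, 1.37 in WT and 1.27 in EP2KO. Cd52, a short glycoprotein anchored in the membrane of lymphocytes and epididymal cells, was 7.82, 7.83, 8.48 and 8.85 in WT and 7.52, 7.53, 8.75 and 8.86 in EP2KO. Its rise lay between 3 and 9 h (0.94 ± 0.153, adjusted p = 0.00289), and 14 h against 9 h did not pass. By 14 h it was 1.19 above 0 h.

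Cd14, the co-receptor for bacterial lipopolysaccharide, first fell and then rose. It was 9.63, 8.80, 9.24 and 9.85 in WT and 9.47, 8.92, 9.16 and 10.25 in EP2KO. It fell by 0.69 ± 0.147 at 3 h (adjusted p = 0.00512), rose by 0.85 from 9 to 14 h (adjusted p = 0.00209) and ended 0.50 above 0 h (adjusted p = 0.0268), a call lost under quantile normalization, with only the 4 arrays of those times, and without the EP2KO 0 h or the EP2KO 14 h array. Its fall did not pass without the WT 0 h array (adjusted p = 0.0803) or the WT 3 h array (0.0502). Of 7 measured Toll-like receptor partners of Cd14, Traf6, a signalling ligase, rose from 9 to 14 h by 0.56 (adjusted p = 0.0280), and the other 6 did not pass.

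Of the 5 measured genes with wider expression 4 rose from 9 to 14 h. Cd68, a lysosomal protein rich in macrophages, was 7.65, 7.02, 7.46 and 7.99 in WT and 7.41, 7.32, 7.55 and 8.30 in EP2KO, highest at 14 h in both, a rise of 0.64 (adjusted p = 0.0115). Lcp1, the actin-bundling L-plastin, was 8.70, 8.06, 8.32 and 8.89 in WT and 8.47, 8.25, 8.23 and 9.40 in EP2KO, and rose by 0.87 ± 0.168 (adjusted p = 0.00401). Ptpn6, the phosphatase SHP-1, was 5.94, 5.40, 5.24 and 5.67 in WT and 5.71, 5.37, 5.19 and 6.04 in EP2KO, and rose by 0.64 (adjusted p = 0.0111). In WT its 14 h value stayed below that at 0 h. The second probe set of Cd68 changed by 0.04 and that of Lcp1 by 0.01, and neither passed. Cyba, the small oxidase subunit, was 9.01, 9.00, 9.34 and 9.41 in WT and 8.90, 9.11, 9.29 and 9.81 in EP2KO. It did not pass from 9 to 14 h but was 0.66 ± 0.141 higher at 14 h than at 0 h (adjusted p = 0.00554). Slfn4, a schlafen gene of activated myeloid cells, was 9.37, 9.45, 8.50 and 8.88 in WT and 9.62, 9.83, 9.01 and 9.46 in EP2KO. It went the other way first: it fell by 0.89 ± 0.125 from 3 to 9 h (adjusted p = 0.00139) and rose by 0.42 from 9 to 14 h, which left it below its 0 h value in both genotypes.

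Against 0 h the picture at 14 h was alike: 15 members were higher and 1, Cybb, lower by 0.43 (adjusted p = 0.0240), with 13.5% of all probe sets higher and 15.2% lower. The 0 h and the 9 h comparison share the 14 h arrays. Of the 39 members 19 had both 14 h arrays above all 6 earlier ones, against 13.2% of all probe sets, and 11 of these 19 were strict markers. The call from 9 to 14 h depends on how the spread is estimated. With only the 4 arrays of 9 and 14 h, which leaves little to estimate the spread from, 1 of the 16 was called, Pdcd1; without either the EP2KO 14 h or the EP2KO 9 h array 11 were, and Laptm5, Fcgr2b, Slfn4, Ptpn6 and Cd68 were lost.

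Other leukocyte genes were read from a list of 66 outside the members, 52 of them measured. From 9 to 14 h 7 of the 52 rose and 0 fell, with a median of 0.17, so their share of rises was near the 10% of all probe sets. Clec4d, a C-type lectin of myeloid cells, went from 6.75 to 7.68 in WT and from 6.73 to 8.54 in EP2KO, a rise of 1.37 (adjusted p = 9.81e-04). Mpeg1, a macrophage pore protein, rose by 1.09, Mrc1, the mannose receptor, by 1.13, and Itgb2, the shared chain of leukocyte integrins, by 0.97. H2-Ab1, a class II antigen-presenting chain, rose by 0.74. The class II chains H2-Aa (0.55) and H2-Eb1 (−0.055) and the invariant chain Cd74 (0.23) did not pass. Itgb2 lay between 5.42 and 5.56 on the 6 earlier arrays and read 6.33 in WT and 6.58 in EP2KO at 14 h.

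Markers of other cell types moved at 14 h as well. Ovgp1, the oviduct glycoprotein, read 7.05 to 7.76 up to 9 h and 11.13 and 11.46 at 14 h, and 4 of 10 oviduct epithelium genes rose, with a median of 0.25 for that list. The 4 were Ovgp1 and the keratins Krt8, Krt18 and Krt19, and Krt8 had also risen by 0.56 from 0 to 3 h. Others of the list went down: at 14 h against 0 h Wt1 was lower by 0.68 (limma, adjusted p = 0.00563) and Foxj1 by 0.415 (adjusted p = 0.0252). Of 11 theca and stroma genes 2 rose and 0 fell, Insl3, a theca hormone, by 0.69 (adjusted p = 0.00495) and Col3a1, a collagen, by 0.50 (adjusted p = 0.0170). Insl3 had fallen by 1.15 from 0 to 3 h, and read 8.21 in WT and 7.91 in EP2KO at 0 h and 7.89 in both at 14 h. Against 0 h none of the 11 was called at 14 h. Of 12 granulosa genes 1 rose and 6 fell from 9 to 14 h. Of 9 endothelial genes 0 rose and 1 fell, and of 6 erythroid and platelet genes none was called. Against 0 h the endothelial gene Cdh5 was 1.55 higher at 14 h (limma, adjusted p = 1.31e-04), after a rise of 1.79 from 3 to 9 h. Tek, also endothelial, stood at −0.45 at 14 h against 0 h (adjusted p = 0.0496). Hba-a1, a haemoglobin gene, was highest in WT at 9 h (13.39) and read 10.91 and 11.14 at 14 h. Hbb-b2, a further haemoglobin gene, was 2.07 higher at 14 h than at 0 h (adjusted p = 0.0106), and read 10.34 in WT at 9 h and 9.55 and 9.51 at 14 h. The part of blood in the members' values was not tested. For 37 measured genes of distant tissues such as liver, muscle and pituitary, 2 rose, 1 fell and the median was 0.03. Relative to its 0 h mean the median of the oviduct list was −0.21 to 0.08 up to 9 h and 0.27 and 0.31 at 14 h, and the part of oviduct cells in the members' values was not tested.

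**Figure D3:**
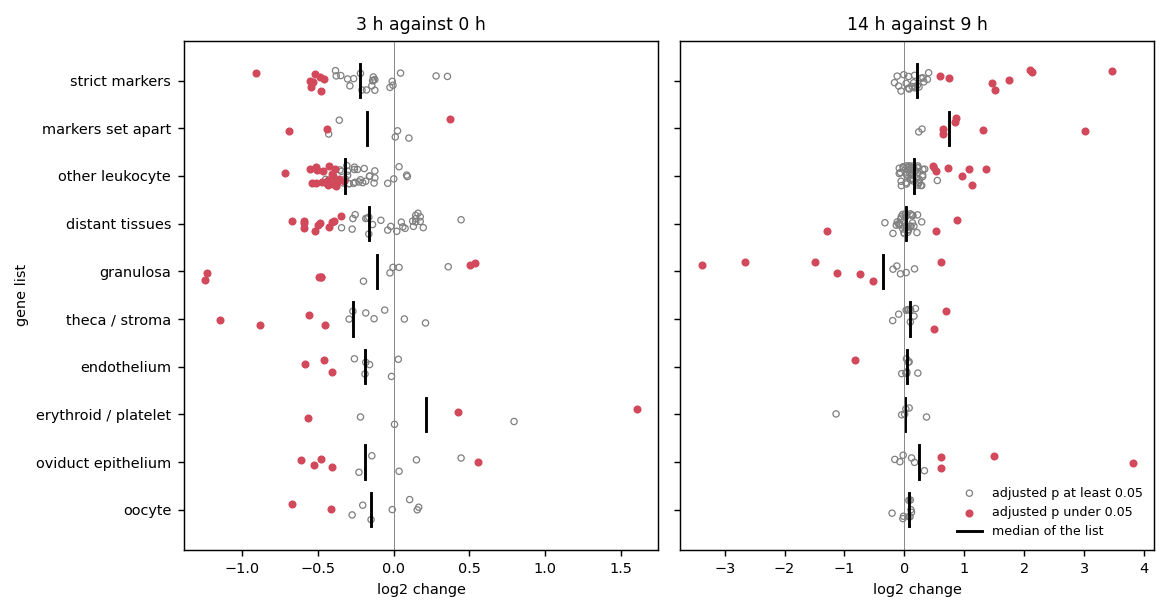
Log2 change of each gene (points; filled red where the limma adjusted p is under 0.05) for the strict markers, the markers set apart and the comparison lists (rows), at 3 h against 0 h (left) and 14 h against 9 h (right), with the median of each list as a black bar. On the right, 8 strict markers and 6 of the markers set apart are called, all to the right of 0, and 1 oviduct gene reaches 3.82; on the left, the leukocyte lists and the distant-tissue list all have medians below 0.

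The comparison of 3 h with 0 h asks what changes soon after the ovulatory stimulus. Of the 39 members 10 fell and 1, Pdcd1, rose, where 25.4% of all probe sets were called lower and 17.4% higher; the members' share of falls was thus near the background. Macrophage genes made up 4 of the 10. C1qb went from 8.23 to 7.11 in WT and from 8.0 to 7.30 in EP2KO, a fall of 0.91 ± 0.131 on the log2 scale (adjusted p = 7.16e-04), although its dimmer probe set did not move in that way (5.87 to 6.14 in WT and 6.07 to 5.93 in EP2KO). Adgre1 was 7.48, 6.85, 7.33 and 7.45 in WT and 7.37, 6.91, 7.24 and 7.74 in EP2KO, and fell by 0.55 (adjusted p = 0.00927); its dimmer probe set stayed between 4.42 and 4.60, and with both averaged the change was −0.27 (adjusted p = 0.0664). Msr1 was 6.77, 6.17, 6.62 and 6.65 in WT and 6.61, 6.17, 6.54 and 7.07 in EP2KO, and fell by 0.52 (adjusted p = 0.0193). Both genes were lowest at 3 h in each genotype and near their starting level by 9 h. Fcgr1 was 7.49, 6.75, 7.27 and 7.20 in WT and 7.16, 6.83, 7.23 and 7.36 in EP2KO, and fell by 0.54 (adjusted p = 0.0125), while its other probe set changed by −0.23 (adjusted p = 0.217). Cd3e was 8.56, 7.69, 8.25 and 8.35 in WT and 8.22, 7.98, 8.09 and 8.33 in EP2KO, and fell by 0.56 (adjusted p = 0.0155). For both of these the WT array dropped more than the EP2KO array. Laptm5 fell by 0.49, Cybb by 0.48, C1qc by 0.46 and Ptpn6 by 0.44, and Cd14 fell as given above.

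These falls are to be read against a shift of the whole array. The median change at 3 h was −0.14 over all probe sets, −0.22 for the strict markers, −0.33 for the other leukocyte genes and −0.17 for the genes of distant tissues. After centring of each array on its median the same 4 values were −0.06, −0.15, −0.25 and −0.09, 8 members fell, and 17% of all probe sets were called lower and 19.3% higher. Among the 37 distant-tissue genes 11 fell. Without the WT 0 h array 1 member fell (C1qb) and without the WT 3 h array 2, and with only the 4 arrays of 0 and 3 h 4 fell.

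From 3 to 9 h 4 members rose, Pdcd1, Cd52, C1qb by 0.68 and Fcgr1 by 0.46 (adjusted p = 0.0424), and 1, Slfn4, fell, beside 7.59% of all probe sets called higher and 11.8% lower. This comparison shares its 3 h arrays with the one above. Without the WT 3 h or the WT 9 h array 2 members rose, and C1qb did not pass (adjusted p = 0.0862 and 0.0952). The Fcgr1 call was lost after centring or quantile normalization, with probe sets averaged, with 4 arrays and without any 1 of the 3 h and 9 h arrays. The filter on low signals removed the Fcgr1 probe set, which was not tested there, and its other probe set changed by −0.13. With the probe sets of C1qb averaged its change was 0.29 (adjusted p = 0.208).

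Loss of EP2 was examined first over all 4 times. In limma 0 of the 39 members passed, as did 0% of all probe sets in either direction, and the smallest adjusted p of a member was 0.528. An unadjusted p under 0.05 was found for 2 of the 39 members, near the 5.17% of all probe sets. They were Slfn4, higher in EP2KO at 0, 3, 9 and 14 h (0.25, 0.38, 0.51 and 0.58), and Pdcd1, lower at each (−0.45, −0.48, −0.16 and −0.26). At single times, where 1 array stood against 1 and no test was made, the median difference (EP2KO minus WT) of the members was −0.10 at 0 h, 0.04 at 3 h and −0.05 at 9 h. No member differed by 1 or more at these times, in either direction, while 0.0242%, 0.0644% and 0.0403% of all probe sets were higher by that much and 0.0161%, 0.403% and 0.0886% lower.

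At 14 h the median difference was 0.37, with 34 of 39 members higher in EP2KO. Over all probe sets it was 0.02, with 6596 of 12422 higher, and over the distant-tissue genes 0.07, with 27 of 37 higher. Over the lowest 40% of probe sets by mean it was 0.04, with 2951 of 4969 higher. Over the 52 other leukocyte genes it was 0.145, with 42 higher in EP2KO and 0 higher by 1 or more. The members higher in EP2KO by at least 1 were Arg1 at 1.91, Lilr4b at 1.55, Ctss at 1.35, Lyz2 at 1.09 and S100a8 at 1.08, which makes 5 of 39 where 0.169% of all probe sets, 21 in number, reached that size; none was lower by 1, beside 0.0483% of all. Tyrobp stood at 0.95, Cd53 at 0.85 and S100a9 at 0.74. Pdcd1 at −0.26 and Cd52 at 0.01 did not share the difference.

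Whether the EP2KO difference at 14 h departed from that at 0, 3 and 9 h was tested as an interaction. That fit passes exactly through both 14 h arrays, so its p values include no spread at 14 h. They rest on the spread among the 6 earlier arrays (2 residual degrees of freedom) and more on limma's prior from all probe sets (8.2 degrees of freedom). With that limit the threshold was passed by 3 members, Arg1 at 1.80 ± 0.255 (SE, 1 array per genotype at 14 h; limma, adjusted p = 0.0466), Lilr4b at 1.61 ± 0.211 (adjusted p = 0.0357) and Ctss at 1.50 ± 0.202 (adjusted p = 0.0359). Over the whole array 8 probe sets passed higher (0.0644%) and 2 lower (0.0161%), so 3 of the 8 were members. S100a8 at 1.22 (adjusted p = 0.0786), Lyz2 at 1.18 (0.351), Cd53 at 0.91 (0.218), Tyrobp at 0.86 (0.302) and S100a9 at 0.78 (0.371) did not pass, and 14 of the 39 members had an unadjusted p under 0.05, beside 6.96% of all probe sets. The median departure was 0.34 over the members, 0.20 over the other leukocyte genes, 0.12 over the distant-tissue genes and 0.03 over all probe sets.

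The departure rests on a single array of each genotype at 14 h. After centring of each array 0 members were called and the 3 adjusted p values lay between 0.0951 and 0.129, with departures of 1.47 to 1.77. Leaving out any 1 of the 6 earlier arrays also ended the 3 calls, with departures between 1.43 and 1.96. Krt18, a simple epithelial keratin of the oviduct list, departed too, by 1.76 (adjusted p = 0.0357), with 7.22 in WT and 8.79 in EP2KO at 14 h, while Ovgp1 was 11.13 and 11.46 on those arrays. The part of the epithelial or leukocyte content of these single samples was not tested. The plot of the 9 to 14 h change in both genotypes sets the members side by side.

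**Figure D4:**
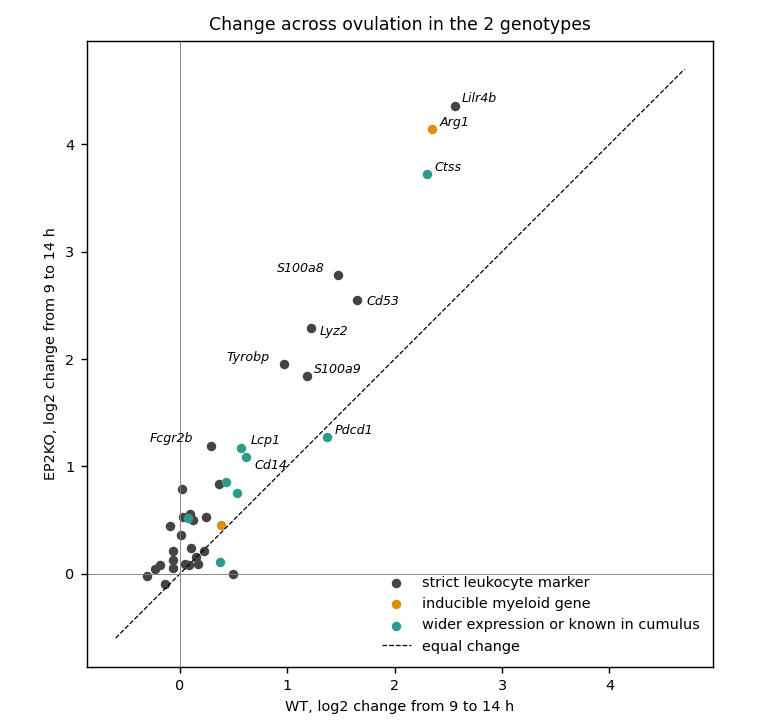
Log2 change from 9 to 14 h in EP2KO (vertical) against that in WT (horizontal) for the 39 measured members, 1 point each, coloured by group, with a dashed line for equal change. Lilr4b, Arg1, Ctss, S100a8, Cd53, Lyz2, Tyrobp and S100a9 lie above the line, Pdcd1 lies just below it, and most other members gather near 0.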

How the data were processed

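Cumulus cell RNA (100 ng, in a protocol that all 8 samples share and that names only the WT RNA) was amplified in a first and a second cycle, labelled and measured on Affymetrix mouse arrays, per the labels' protocols. The deposited values are log2 signals that the authors made with RMA, per the submitters' processing notes, with no version named. They were used as deposited. After removal of 66 control probe sets from 12488, the other 12422 were tested with no filter on low values. Depth is not defined for arrays, and their number limits the precision. Symbols come from the platform annotation (10833 probe sets with 1 symbol, 396 with several, 1193 with none); all 39 measured members also stood in the RefSeq gene table. Of the members 13 had more than 1 probe set, and 3 probe sets that list a member beside another gene were not used.

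Fits used limma 3.58.1 in R 4.3.3: time and genotype as terms over all 8 arrays (3 residual degrees of freedom), and for the departure at 14 h also their interaction (2 residual degrees of freedom). P values are two-sided, moderated, and adjusted over those 12422 by the Benjamini-Hochberg method with a threshold of 0.05; a gene is said to rise or fall where it passed. They measure the spread between single arrays, with the 2 genotypes standing as the 2 arrays of a time. In the fit of time and genotype, any genotype difference that varies with time counts as spread, and no replicate variation is measured. The errors given for the rises of Lilr4b, Arg1 and Ctss thus include their EP2KO difference at 14 h. The code was tested on simulated data. Members past the threshold with a change of at least 0.5 are given by array. Other genes named are mostly the largest called changes of their lists, with some uncalled genes set beside them. The members and lists were chosen with earlier results of these data known, and the alternatives are described at the end.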

Additional observations from a re-analysis of the deposited data

Results flagged for a closer look

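For Lilr4b (1.61), Arg1 (1.80) and Ctss (1.50) the EP2KO difference at 14 h, on the log2 scale, passed the interaction test against that at the earlier times. There is 1 array per genotype at 14 h, so the test holds no spread of 14 h samples, and all 3 calls were lost after centring, with probe sets averaged and without any 1 of the 6 earlier arrays. Each of the 3 genes has 1 probe set, so averaging left its own values as they were and changed only the other genes in the fit.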

How the results depend on the processing

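Alternatives were array centring, quantile normalization, a filter removing the lowest 40% of probe sets, a gene's mean over its probe sets, a prior with an intensity trend, fewer arrays, and each array left out in turn. From 9 to 14 h the 16 rises became 7 under the filter, which kept 18 of the 39 members. The rises lost there (Cd53, Tyrobp, Fcgr2b, Lilr4b, Lyz2, S100a8, S100a9, Ptpn6 and Ctss) were those of removed probe sets, which were not tested again. With only the 4 arrays of those times 1 was called, and leaving out single arrays gave 11 to 18. From 0 to 14 h the 15 rises became 7 under the filter and 10 (without EP2KO at 0 or 14 h) to 19; the 1 fall became 0 under the filter and with 4 arrays, and 0 without any of the 0 h or 14 h arrays, otherwise 1. At 3 h the 10 falls became 5 under the filter and 4 with 4 arrays, and 1 to 13 without single arrays; the 1 rise became 0 with 4 arrays and 0 to 3 without single arrays (3 without EP2KO at 3 h; 0 without EP2KO at 0 or 9 h or WT at 0, 3 or 9 h). From 3 to 9 h the 1 fall became 2 with 4 arrays and with the 6 arrays to 9 h, a choice added after the data were seen, and 1 to 3 without single arrays (3 without EP2KO at 3 h, 2 without either 14 h array); the 4 rises ranged from 2 (without WT at 3 or 9 h) to 6. The 3 departures became 0 with centring, under the filter (where Arg1 alone was kept, adjusted p = 0.0628) and with probe sets averaged, and 0 without any 1 of the earlier arrays; without a 14 h array no departure could be fitted. Every call between times that was lost under the filter was that of a member whose probe set the filter removed. Lilr4b, Arg1 and Ctss have 1 probe set each, so averaging did not alter their own values. The cause of the other losses was not tested. No named call changed sign. The fit already takes time differences within genotype and genotype differences within time; the labels give no replicate numbers for a further block. Signals near background limit the dimmest members, and detection calls were not used.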
